A study of Homo sapiens with 6 samples.

Results

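The FAM83 genes described here are the 8 coding genes FAM83A to FAM83H and the antisense gene FAM83A-AS1, taken by symbol as 9 of the 46427 genes in the deposited expression table. The cells were VK2/E6E7, a human cell line from the vaginal epithelium that carries the papillomavirus genes E6 and E7, wild type by label and grown in serum-free keratinocyte medium with EGF, pituitary extract and antibiotics. One group was given PBS and the other the lactic acid bacterium Lactobacillus salivarius HHuMin-U, here HMU, at 1e8 CFU/mL; RNA was taken after 6 h from 3 biological replicates of each group. All libraries came from a single line in culture, so the spread between replicates is that of cultures of these cells. The family was chosen by the measured rise of FAM83A and FAM83A-AS1 in the comparison of HMU with PBS. The values of the 9 genes in that comparison are therefore a description, with fold changes and standard errors but no p-value.

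FAM83 proteins share an N-terminal domain, DUF1669, through which they bind kinases of the casein kinase 1 (CK1) family and bring them to particular places in the cell. FAM83A and FAM83B are known as genes that are raised in carcinomas and that carry signals from the EGF receptor to RAF, MAPK and PI3K. FAM83D takes CK1 alpha to the mitotic spindle together with HMMR, FAM83G (also called PAWS1) acts in BMP and Wnt signalling, FAM83F also acts in Wnt signalling, and FAM83H, mutated in an enamel disease, organises CK1 and keratin filaments. FAM83C and FAM83E are less studied. FAM83A-AS1 is a long non-coding RNA gene on the opposite strand of FAM83A.

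Total counts lay between 64292566 and 65957584 per library. Pairs of PBS libraries differed by a chi-square of 4.87 to 5.91 per degree of freedom. The value was 13.5 for HMU replicates 1 and 3, and 63.7 and 109 for HMU replicate 2 against either, so that library stood apart and no libraries were duplicates. All 10 squamous epithelial markers, KRT5, KRT14 and TP63 among them, had at least 10 counts in every library, and their summed TPM (a unit scaled by transcript length) was 85455 to 87955 in PBS and 69595 to 77053 in HMU libraries. Fibroblast markers summed to 57.3 to 61.0 TPM in PBS and 35.9 to 38.9 in HMU, endothelial markers to 0.401 to 0.491 and 0.768 to 1.28, and leukocyte markers to 80.7 to 84.9 and 131 to 140. Among the leukocyte markers FCGR3A had 0 counts throughout, and most of the list's level was CD68, a lysosomal protein gene. The part of these markers in the results below was not tested. In bulk RNA, fewer cells that express a gene and less RNA per cell cannot be told apart.

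FAM83A rose 16.5-fold, FAM83A-AS1 went from no counts to a low level, FAM83B was 2.04-fold lower after HMU, and FAM83F, FAM83G and FAM83H rose by 1.37-fold to 1.49-fold. FAM83C, FAM83D and FAM83E did not pass. All 9 genes passed the filter on low counts, FAM83A-AS1 only through its HMU libraries. By edgeR's quasi-likelihood test over 17990 genes, at an adjusted p under 0.05, 5 of the 9 were called higher and 1 lower, where 24.8% of all tested genes were higher and 24.9% lower (49.7% in either direction). HMU values lay above all PBS values for 6 of the 9 and below them for 2, where this held for 30.3% and 32% of all tested genes (62.3% in either direction). Without HMU replicate 2, 5 were called higher and 2 lower, beside 5426 and 5481 of the 18485 genes tested in that fit. Since the family was chosen with this comparison known, nothing is read from these counts. Levels are given in CPM, the counts relative to library sizes scaled by TMM, a normalisation that sets the bulk of genes to no change. On that scale the median of log2 changes over all tested genes was -0.0025, and with library sizes only it was -0.28; the small changes in the family depend on that choice, as given with each gene.

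**Figure D1:**
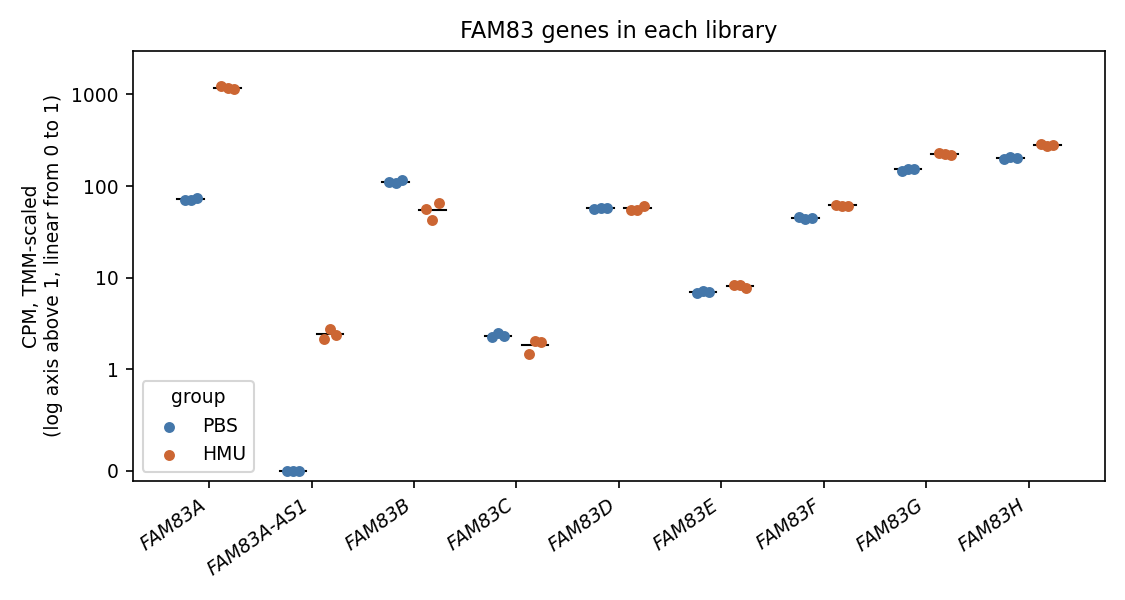
Level of each FAM83 gene in each library, in TMM-scaled CPM; points are the 3 PBS and 3 HMU libraries and bars the group means. FAM83A lies between 70.7 and 74.1 CPM in PBS and between 1154 and 1251 in HMU, FAM83A-AS1 is at 0 in PBS, and the other genes move far less.

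FAM83A, the family member best known for acting downstream of the EGF receptor (gene ID 84985, chromosome 8 from 123179047 to 123210079, plus strand, GRCh38), had 5002, 5097 and 5341 counts in the PBS libraries, in the order of their numbers, and 74180, 66997 and 69961 in the HMU libraries. In CPM these were 70.7, 71.2 and 74.1 in PBS, and 1251, 1166 and 1154 after HMU. The HMU libraries lay close together, HMU replicate 2 included, and far above the PBS libraries. The means were 72.0 ± 1.83 and 1190 ± 53.2 CPM (SD, n = 3), a 16.5-fold rise with a log2 fold change of 4.05 ± 0.069 (SE). It was 3.77 with library sizes only and 3.68 on log2(TPM + 1), and between 4.01 and 4.07 when any 1 library was left out. The change was the 156th largest fitted rise among the 17990 genes. By mean TPM, FAM83A moved from place 2970 to place 207 among the 46427 listed genes.

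FAM83A-AS1, the antisense gene (gene ID 100131726, chromosome 8 from 123201172 to 123202743, minus strand), had 0 counts in each PBS library and 127, 157 and 142 counts in HMU replicates 1 to 3. After HMU this was 2.14, 2.73 and 2.34 CPM, a mean of 2.41 ± 0.30 (SD, n = 3). A floor of 3 counts per PBS library equals 0.0416 to 0.0424 CPM, so the gene was at least 57.3-fold higher; the floor covers counting error only. The gene was low beside its partner, at 2.02 counts for every 1000 of FAM83A in the HMU libraries.

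Libraries were made with a kit that keeps strand, but the sources used here do not say whether counting was by strand, so some reads may belong to either gene of the pair. In GENCODE 29, on the same build, the whole span of FAM83A-AS1 lies inside intron 4 of the longest FAM83A transcript, which has 5 exons and whose intron 4 runs for 13008 bases from 123194149 to 123207156. No exon of the 3 antisense transcripts overlaps an exon of the 8 annotated FAM83A transcripts (0 overlapping pairs), and the nearest exon is 1177 bases away. Reads from spliced FAM83A RNA of these transcripts thus have no base in common with FAM83A-AS1, and unspliced FAM83A RNA would have. The PBS libraries held 15440 FAM83A counts and 0 antisense counts, and the HMU libraries 211138 and 426, a ratio of 2.02 for every 1000. With the floor of 3 counts per library the PBS ratio was at most 0.583 antisense counts for every 1000 of FAM83A. These ratios rest on the counts by which the pair was chosen and carry no test. Whether unspliced FAM83A RNA gave antisense counts was not tested.

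**Figure D2:**
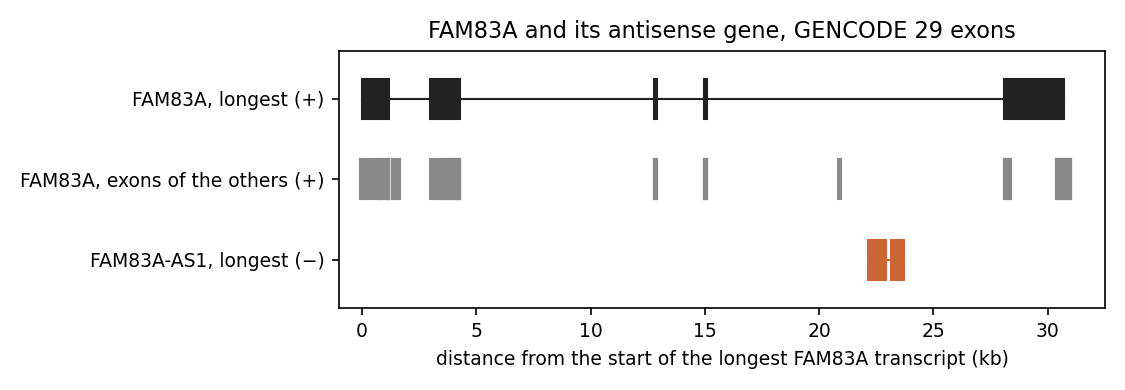
Exons of FAM83A (the longest of its 8 GENCODE 29 transcripts, and those of the others) and of the longest FAM83A-AS1 transcript, in kb from the start of the longest FAM83A transcript; boxes are exons and lines introns. The antisense exons sit in the long intron before the last exon, with 1177 bases to the nearest FAM83A exon.

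FAM83B, the closest in known function to FAM83A as a carrier of EGF receptor signals to RAF and PI3K (gene ID 222584, chromosome 6 from 54846203 to 54945099, plus strand), went the other way. Its levels were 109.8, 107 and 116 CPM in PBS replicates 1 to 3 and 55.6, 42.1 and 65.9 CPM after HMU. All HMU libraries lay below all PBS libraries, with HMU replicate 2 lowest and a wider spread than in PBS. The means were 111 ± 4.61 and 54.5 ± 12.0 CPM (SD, n = 3), and the log2 fold change was -1.03 ± 0.15 (SE). It was -0.87 without HMU replicate 2 and -1.31 with library sizes only, and the gene was called lower in each of these fits.

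The sequences upstream of FAM83B and FAM83G are shown because these genes moved in opposite directions and have an entry in the RefSeq table of promoters (GRCh38.p14), which holds 4 of the 9 genes, the others being FAM83C and FAM83E. Each is the 250 bases before a transcript start, read 5′ to 3′ on the gene's strand, chr6:54846521-54846770 on the plus strand for FAM83B and chr17:19004765-19005014 on the minus strand for FAM83G. Both windows lie inside the gene's full span given here, before a start downstream of its outermost 5′ end, while those of FAM83C and FAM83E end at the outer edge of the gene. Capitals mark matches on either strand to motifs searched with a script: TGANTCA for AP-1, GGGA, any 4 bases and CC for NF-kB and AGGAAG for ETS factors.
FAM83B upstream: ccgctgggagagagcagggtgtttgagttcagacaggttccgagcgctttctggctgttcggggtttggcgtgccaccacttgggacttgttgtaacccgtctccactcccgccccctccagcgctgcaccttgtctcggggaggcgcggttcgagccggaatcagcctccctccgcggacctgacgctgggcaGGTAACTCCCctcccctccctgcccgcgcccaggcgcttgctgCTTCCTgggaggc
FAM83G upstream: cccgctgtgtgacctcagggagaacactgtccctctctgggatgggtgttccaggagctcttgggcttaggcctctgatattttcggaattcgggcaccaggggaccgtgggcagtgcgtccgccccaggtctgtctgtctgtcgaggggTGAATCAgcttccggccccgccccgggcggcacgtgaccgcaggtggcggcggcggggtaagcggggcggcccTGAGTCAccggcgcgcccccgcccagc
The FAM83G stretch holds TGANTCA at 2 places, whose first bases are 100 and 27 bases before the start, and no match to the NF-kB or ETS letters. The FAM83B stretch holds 1 NF-kB match beginning 56 bases and 1 ETS match beginning 13 bases before the start, both on the reverse strand, and no AP-1 match. FAM83C has 1 NF-kB and 1 ETS match in the same window, and FAM83E has 1 NF-kB and 2 ETS matches. No 2 of these matches overlap in the stretches shown. Over 35116 upstream windows of this length, 6.6% held the AP-1 letters, 22.6% the NF-kB letters and 28.7% the ETS letters. These are matches of letters and not sites of binding.

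FAM83G, which acts in BMP and Wnt signalling (gene ID 644815, chromosome 17 from 18968789 to 19006116, minus strand), stood at 147, 154 and 154 CPM in PBS and at 232, 225 and 221 CPM after HMU. The groups did not overlap, and the log2 fold change was 0.57 ± 0.060 (SE), from 152 ± 3.93 to 226 ± 5.49 CPM (SD, n = 3). FAM83H, the member that organises keratins (gene ID 286077, chromosome 8 from 143723933 to 143733779, minus strand), stood at 199, 209 and 201 CPM in PBS and at 291, 273 and 283 CPM after HMU. Its groups did not overlap either, and the log2 fold change was 0.47 ± 0.061 (SE). FAM83F, a Wnt pathway member of the family (gene ID 113828, chromosome 22 from 39994954 to 40043534, plus strand), stood at 46.4, 43.5 and 44.7 CPM in PBS and at 62.7, 60.6 and 60.6 CPM after HMU, with a log2 fold change of 0.45 ± 0.064 (SE).
These 3 genes changed by similar amounts and with little spread, but their rise is relative to the TMM scale. With library sizes only the log2 fold changes were 0.17 for FAM83F, 0.29 for FAM83G and 0.19 for FAM83H, and FAM83F was no longer called. On log2(TPM + 1) they were 0.043, 0.17 and 0.073, and none of the 3 was called, while the median of all genes stood at -0.27.

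FAM83D, the spindle member (gene ID 81610, chromosome 20 from 38926417 to 38953106, plus strand), differed little on the TMM scale, at 56.7, 57.7 and 57.8 CPM in PBS and 55.4, 54.7 and 60.6 CPM after HMU. The groups overlapped, and the log2 fold change was -0.013 with a 95% interval from -0.17 to 0.15, the intervals here being without adjustment for the number of genes. On library sizes alone it was -0.29 and the gene was called lower. FAM83C (gene ID 128876, chromosome 20 from 35285731 to 35292425, minus strand) was the lowest of the coding members, at 2.22, 2.49 and 2.29 CPM in PBS and 1.47, 2.04 and 1.96 CPM after HMU. The HMU values all lay below the PBS values, but the log2 fold change of -0.36 (95% interval from -0.72 to 0.011) did not pass; it was -0.44 and called without HMU replicate 2, and -0.64 and called with library sizes only. FAM83E (gene ID 54854, chromosome 19 from 48599961 to 48615076, minus strand) had nearly equal counts in both groups, 486, 505 and 499 in PBS and 488, 479 and 472 after HMU. On the TMM scale this became a log2 fold change of 0.22 (95% interval from 0.036 to 0.41), which was not called; it was called without HMU replicate 3, at 0.25, and with library sizes only the sign turned, to -0.058.

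**Figure D3:**
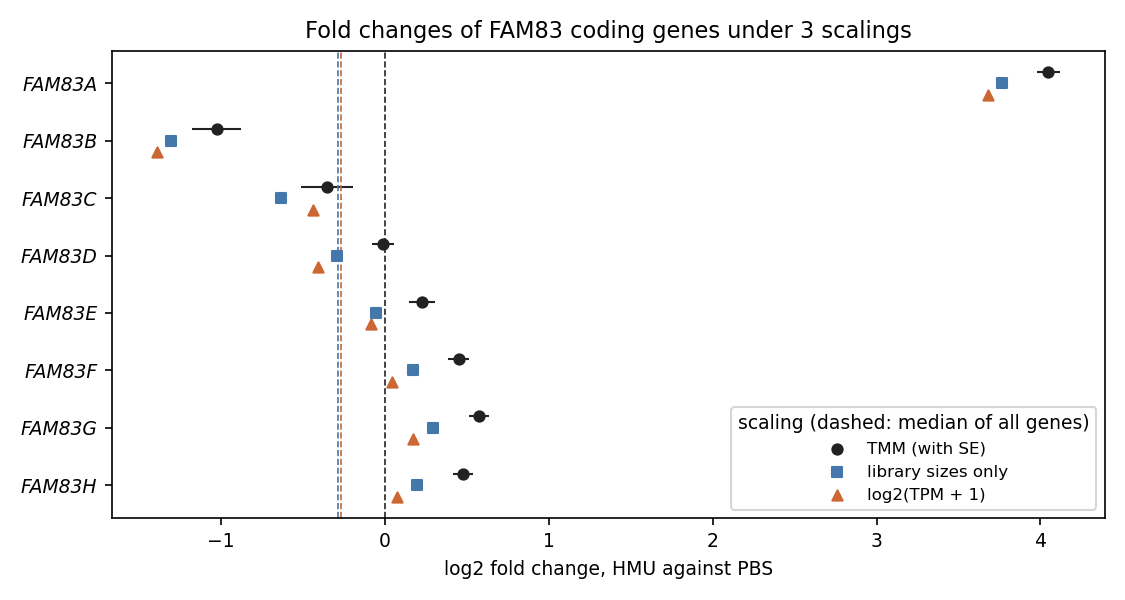
Log2 fold change (HMU against PBS) of the 8 coding FAM83 genes with TMM scaling (points with SE), with library sizes only and on log2(TPM + 1); dashed lines are the median of all tested genes in each. FAM83A at 4.05 and FAM83B at -1.03 keep their side in all 3, and FAM83E crosses 0.

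Levels of different genes were compared on the deposited TPM values, which are scaled by transcript length. In PBS the order of mean TPM was FAM83H at 84.9 ± 2.65, FAM83G at 68.3 ± 2.31, FAM83D at 57.1 ± 1.05, FAM83A at 48.4 ± 3.41, FAM83B at 42.0 ± 1.95, FAM83F at 6.78 ± 0.182, FAM83E at 5.44 ± 0.252, FAM83C at 1.73 ± 0.106 and FAM83A-AS1 at 0 (SD, n = 3). The ranges of neighbours in this order did not overlap. After HMU the order was FAM83A at 633 ± 56.5, FAM83H at 89.6 ± 8.70, FAM83G at 77.1 ± 5.47, FAM83D at 43.0 ± 5.34, FAM83B at 15.8 ± 4.53, FAM83F at 7.03 ± 0.552, FAM83E at 5.06 ± 0.169, FAM83A-AS1 at 3.68 ± 0.296 and FAM83C at 1.02 ± 0.168. There only the ranges of FAM83H and FAM83G overlapped. FAM83A went from the fourth place to the first.
The summed TPM of the 9 genes was 315 ± 9.75 in PBS and 876 ± 78.1 after HMU (SD, n = 3). Without FAM83A the sums were 266 ± 6.41 and 242 ± 23.6, and the groups overlapped. FAM83A held 15.4% ± 0.625 of the family's TPM in PBS and 72.3% ± 0.893 after HMU (SD, n = 3). The share of FAM83B was 12.8% to 13.7% in PBS and 1.41% to 2.20% after HMU. Mean shares of the other coding members besides FAM83A fell too, such as FAM83H from 27.0% to 10.2% and FAM83G from 21.7% to 8.81%. With FAM83A filling most of the sum after HMU, a share alone does not give the change of a gene.

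The genes next to FAM83A on chromosome 8 did not share its rise. TBC1D31, a centrosome protein gene 13873 bases before it, went from 11.1 ± 0.510 to 6.90 ± 0.685 CPM (log2 change -0.68, SE 0.099; adjusted p = 0.0010 by edgeR). C8orf76, 9887 bases after it, was at 11.6 ± 0.873 and 11.5 ± 0.661 CPM (log2 fold change -0.016, 95% interval from -0.22 to 0.19, edgeR adjusted p = 0.90); with library sizes only it was called lower, at -0.30. Over the 16 nearest tested coding genes on either side of the 8 coding members, 5 were called higher and 6 lower, beside 24.8% and 24.9% of all tested genes. With library sizes only, 1 was higher (SULT2B1) and 8 were lower, beside 2413 and 7855 of all 17990 genes. The same neighbour numbers were found on log2(TPM + 1), beside 1975 and 9153 of all 17990 genes.
Genes that overlap the other members were few and low. FAM83G lies inside the span of SLC5A10, a sugar transporter gene, which was at 1.05 ± 0.234 CPM in PBS and 1.07 ± 0.164 after HMU (SD, n = 3). The antisense gene of FAM83C, FAM83C-AS1, had 5, 0 and 0 counts in PBS and 15, 11 and 4 after HMU and was not tested. SPACA4 at FAM83E, LOC114841040 at FAM83F and MIR4664 at FAM83H had at most 15 counts in any library.

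**Figure D4:**
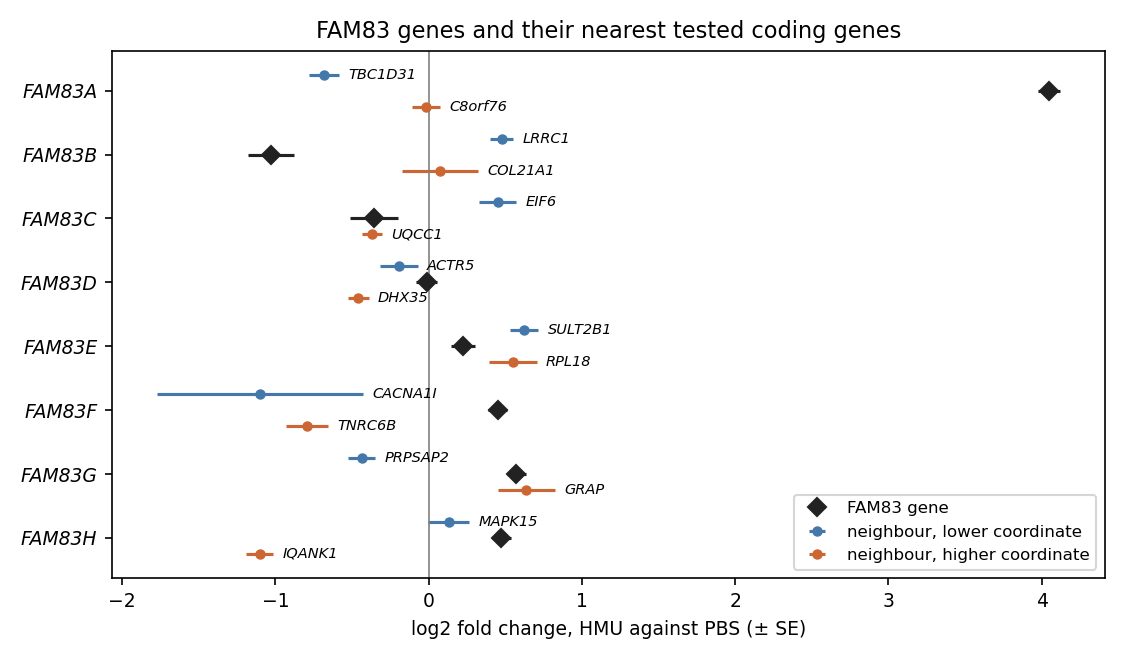
Log2 fold change (HMU against PBS, ± SE) of each coding FAM83 gene (diamonds) and of the nearest tested coding gene on either side (circles). The FAM83A neighbours TBC1D31, at -0.68, and C8orf76, at -0.016, lie far from FAM83A at 4.05.

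CK1 kinases, the kinase family that FAM83 proteins are known to bind, were tested for 6 of 7 listed genes. The list was made by kinase family, with CSNK1G1, CSNK1G2 and CSNK1G3 included, so not each gene in it need be a FAM83 partner. Of the 6 tested genes 4 rose, CSNK1G2 among them, and 0 fell, beside 24.8% higher and 24.9% lower of all tested genes. The median log2 fold change was 0.40, beside -0.0025 for all genes. CSNK1E, which encodes CK1 epsilon, went from 82.5 ± 4.04 to 313 ± 34.4 CPM (log2 change 1.92, SE 0.096; adjusted p = 5.1e-06 by edgeR), and it shares sequence with a readthrough gene, so its share of reads is uncertain. CSNK1D, for CK1 delta, went from 145 ± 5.04 to 261 ± 11.4 CPM (log2 change 0.85, SE 0.065; adjusted p = 4.1e-05 by edgeR). CSNK1A1, for CK1 alpha and the most abundant of the list, went from 522 ± 0.796 to 656 ± 77.2 CPM (log2 change 0.33, SE 0.090; adjusted p = 0.018 by edgeR). That last call ended with library sizes only (0.050), and also without any 1 of the PBS libraries or HMU replicate 1 (0.30 to 0.33); on log2(TPM + 1) the value was -0.077. Under library sizes only 2 of the list were higher and 2 lower, beside 2413 and 7855 of all 17990 genes.

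Of 26 genes from the EGF receptor to MAPK and PI3K, the route of FAM83A and FAM83B, 7 rose and 4 fell. The median was 0.014, and 24.8% of all tested genes were called higher and 24.9% lower. EGFR itself, the most abundant, was at 766, 730 and 765 CPM in PBS and at 966, 584 and 1020 after HMU; the groups overlapped, with HMU replicate 2 below and the other HMU libraries above all PBS libraries (log2 change 0.18, SE 0.19; adjusted p = 0.44 by edgeR). Without HMU replicate 2 EGFR was called higher, at 0.40, and with library sizes only it was -0.093 and not called. PIK3R1, the regulatory subunit of PI3K, fell from 129 ± 1.49 to 47.3 ± 9.27 CPM (log2 change -1.45, SE 0.14; adjusted p = 0.00011 by edgeR). The MAPK kinase gene MAP2K2 rose from 59.3 ± 0.408 to 118 ± 16.7 CPM (log2 change 1.00, SE 0.10; adjusted p = 0.00019 by edgeR). With library sizes only 4 of the 26 were higher and 13 lower, beside 2413 and 7855 of all 17990 genes.

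Of 13 spindle genes around FAM83D, 0 rose and 7 fell, with a median of -0.19, beside 24.8% and 24.9% of all tested genes. HMMR, the spindle partner of FAM83D, fell from 43.9 ± 1.10 to 24.1 ± 3.14 CPM (log2 change -0.86, SE 0.10; adjusted p = 0.00039 by edgeR) while FAM83D stood at 57.4 ± 0.601 and 56.9 ± 3.25. The spindle kinesin gene KIF15 fell from 13.1 ± 0.476 to 8.86 ± 0.519 CPM, and TPX2, the most abundant of the list, from 271 ± 3.52 to 226 ± 10.3 CPM (log2 change -0.26, SE 0.062; adjusted p = 0.0099 by edgeR). The TPX2 call ended without PBS replicate 1 (-0.26). On library sizes alone 11 of the 13 were lower, beside 7855 of all 17990 genes.

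Of 12 BMP receptor and SMAD genes, the pathway of FAM83G, 0 rose and 7 fell, beside 24.8% and 24.9% of all tested genes. The list's median was -0.63. SMAD6, an inhibitory SMAD, fell from 4.77 ± 0.826 to 0.0907 ± 0.0285 CPM, and SMAD9, a receptor-regulated SMAD, from 9.33 ± 1.04 to 1.14 ± 0.248 CPM (log2 change -3.03, SE 0.17; adjusted p = 1.0e-05 by edgeR). SMAD5, the most abundant, fell from 96.1 ± 1.40 to 51.0 ± 16.3 CPM. SMAD1, which FAM83G is known to bind, chosen after its values were seen, fell from 35.3 ± 0.327 to 17.6 ± 3.15 CPM. Under library sizes only 11 of the 12 were lower, beside 7855 of all 17990 genes, whose median log2 change was then -0.28.

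Of 17 tested Wnt and beta-catenin genes, 5 rose and 6 fell, beside 24.8% and 24.9% of all tested genes. The median was -0.20, and 1 more gene, LEF1, was not tested. AXIN2, a target and brake of the pathway, fell from 3.36 ± 0.335 to 0.621 ± 0.0421 CPM (log2 change -2.43, SE 0.15; adjusted p = 1.3e-05 by edgeR), and GSK3B, a kinase of the beta-catenin destruction complex and the most abundant of the list, rose from 166 ± 4.81 to 396 ± 74.5 CPM (log2 change 1.25, SE 0.13; adjusted p = 0.00022 by edgeR). On library sizes alone the list had 2 higher and 9 lower calls, against 2413 and 7855 among all 17990 tested genes.
Of 16 keratin and keratin anchor genes, the partners of FAM83H, 11 rose and 2 fell, beside 24.8% and 24.9% of all tested genes. The list's median was 0.56. KRT5, the basal keratin and the most abundant, was at 34973 ± 51.6 and 37375 ± 3425 CPM and did not pass (log2 change 0.096, SE 0.070; adjusted p = 0.29 by edgeR), and with library sizes only it was called lower, at -0.19. KRT13, a keratin of stratified non-cornified epithelium, rose from 36.7 ± 2.83 to 140 ± 24.9 CPM, and KRT7, a simple epithelial keratin, from 0.588 ± 0.152 to 3.72 ± 0.534 CPM. The 2 that fell, named after their values were seen, were more abundant. KRT16 went from 4078 ± 177 to 2792 ± 585 CPM and the keratin anchor gene DSP from 3561 ± 125 to 2406 ± 537 CPM. On library sizes alone 8 were higher and 4 lower, beside 2413 and 7855 of all 17990 genes. Without PBS replicate 1 or 3, 1 was lower, beside 3396 of 18408 and 3290 of 18336 genes tested in those fits. Keratin genes such as KRT6A, KRT6B and KRT6C are near-identical copies, between which reads can be split.

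**Figure D5:**
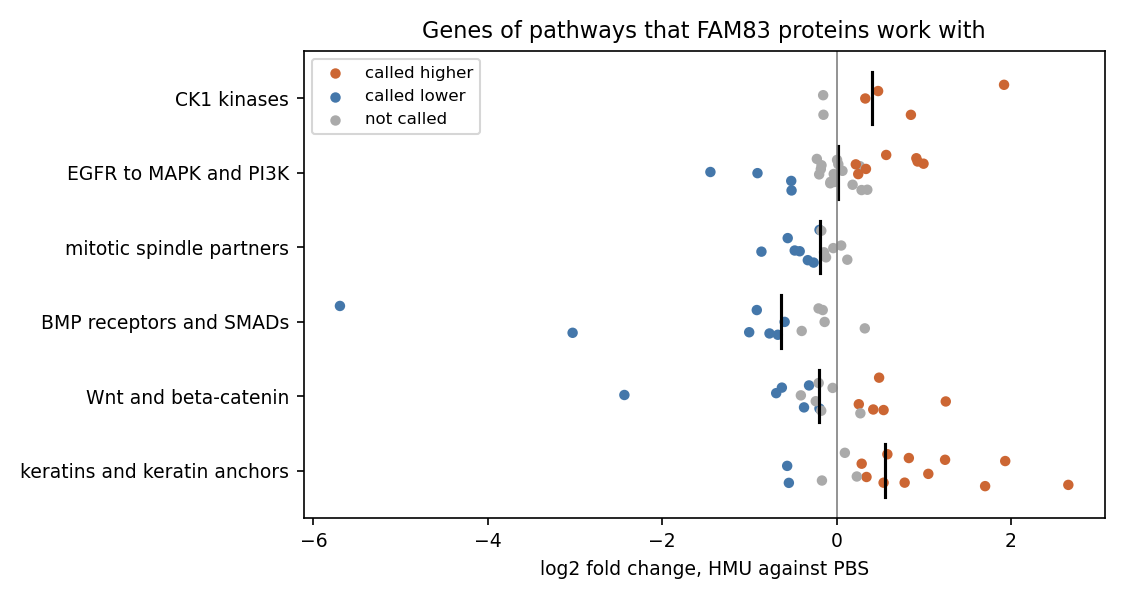
Log2 fold change (HMU against PBS, TMM scale) of each tested gene in 6 lists of kinases and pathways around the FAM83 proteins; colour marks the edgeR call and black bars the list medians. CK1 kinases (median 0.40) and keratins (0.56) lie mostly to the right, spindle genes (-0.19) and BMP genes (-0.63) mostly to the left.

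The coding genes most like FAM83A over the 6 libraries were found by the root mean square difference of log2(CPM + 0.5) profiles centred on the PBS mean, among 12461 genes whose mean was 1 CPM or more. They were MARCKSL1, at a difference of 0.064, GPR37L1 (0.11), SPRR2E (0.11), CEACAM1 (0.13) and CYP26B1 (0.14). MARCKSL1, an actin-binding protein gene, went from 11.8 ± 0.358 to 202 ± 18.1 CPM, and CYP26B1, which breaks down retinoic acid, from 12.4 ± 0.186 to 234 ± 29.8 CPM. GPR37L1 and CEACAM1 had under 1 CPM in PBS, where the added 0.5 shrinks their fold, so they are alike on this scale only. For FAM83B, the called member with the largest fall, the nearest were AMMECR1 (0.017), ARHGAP24 (0.027), CXADR (0.033), ATF2 (0.034) and KIAA0586 (0.037). All 5 had their lowest value in HMU replicate 2 and their next in HMU replicate 1, as FAM83B did; CXADR, a junction protein and virus receptor gene, was at 26.7, 21.6 and 33.0 CPM in HMU replicates 1 to 3. Likeness over 6 libraries in 2 groups rests mostly on the group difference, and nothing is said of shared control.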

How the data were processed

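Per the labels, RNA from 3 PBS and 3 HMU cultures was sequenced from TruSeq stranded mRNA libraries. The deposited read counts are whole numbers per gene, per the file headers, and showed no sign of scaling. The deposited FPKM and TPM columns, so named per the file headers, hold levels relative to gene length and depth. The submitters' processing notes list the build GRCh38, the aligner HISAT2 2.1.0, the read tools Trimmomatic 0.38 and FastQC 0.11.7, and StringTie 2.1.3b; which counter and annotation were used, and whether it read strand, no source used here gives. Treated columns carry the name HMO and were taken as the HMU samples, with the same replicate numbers.

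The count tests used edgeR 4.0.16 under R 4.3.3: filterByExpr by group (17990 of 46427 genes), TMM factors (0.893 to 1.11), estimateDisp, glmQLFit and glmQLFTest with the group as the only term, with calls at 0.05 after Benjamini-Hochberg adjustment. Each SE is the log2 fold change divided by the root of its F. On simulated counts with known changes the tests were checked before use. Alternatives were DESeq2 1.42.0, limma 3.58.1 (voom, and log2 TPM or FPKM), other scalings and filters, a replicate block and leaving out each library. Members and lists were chosen with earlier results of these data known: named genes are the members, the most abundant and the 2 most changed called genes of each list, the neighbours of FAM83A, overlapping genes and the nearest profiles. Gene positions are RefSeq's for GRCh38, matched by gene ID; exons are GENCODE 29's. P-values cover the spread between these cultures only.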

Additional observations from a re-analysis of the deposited data

How the results depend on the processing

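FAM83A, FAM83A-AS1 and FAM83B kept their direction and their call under all alternatives run. For FAM83A-AS1, at 0 counts in each PBS library, no alternative could turn the direction, and the pair was chosen by its rise. With library sizes only, FAM83C (-0.64) and FAM83D (-0.29) were called lower and FAM83F (0.17) was not called, so that 3 members were lower. For log2 of TPM with 1 added, TPM with 0.1 added and FPKM with 1 added, 3 members were lower, with FAM83C at -0.44, -0.72 and -0.22 and FAM83D at -0.41, -0.42 and -0.28; FAM83F was not called (0.043, 0.049 and 0.13). On both TPM scales FAM83G (0.17 and 0.17) and FAM83H (0.073 and 0.073) were not called, which left 2 members higher. Counts over all genes for library sizes only and for the TPM and FPKM scales are given in the next paragraph. FAM83E was called higher with DESeq2 (0.23), RLE scaling (0.23) and a filter of 1 CPM in 3 libraries (0.22). When 1 library was left out, 1 to 2 members were lower, where lower calls over all genes ran from 3290 of 18336 to 5481 of 18485. In these fits FAM83C ranged from -0.44 to -0.22 and FAM83E from 0.21 to 0.25. Without HMU replicate 3 FAM83E was called (0.25), which made 6 members higher, beside 4811 of the 18426 genes tested in that fit.

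Partner genes of the 6 lists, 27 higher and 26 lower in 90 tested, were 16 and 50 with library sizes only, 13 and 54 on log2(TPM + 1), 13 and 53 on log2(TPM + 0.1) and 16 and 47 on log2(FPKM + 1). Neighbours higher numbered 1 in these 4 settings and 2 to 5 when 1 library was left out. In the latter fits, higher calls over all genes ran from 3334 of 18336 to 5426 of 18485. CSNK1A1 turned to -0.077 on both TPM scales, and KRT5 to -0.19 with library sizes only and -0.31 on both TPM scales. These settings also moved the median of all genes, to -0.28 with library sizes only, -0.27 and -0.38 on the TPM scales and -0.12 on FPKM. Over all 17990 genes they gave 2413 higher and 7855 lower with library sizes only and 1975 and 9153 on log2(TPM + 1). The numbers were 1965 and 9126 on log2(TPM + 0.1), 2441 and 7612 on log2(FPKM + 1), and 4457 and 4487 with TMM. The cause was not tested.

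Same-numbered libraries deviated from their group means with correlations of -0.019, 0.035 and 0.048. Between libraries of unlike number the correlations ran from -0.060 to 0.026. With 3 libraries per group these values cannot decide whether the numbers pair the samples, and the labels do not say. With the replicate block FAM83A was at 4.05 and FAM83B at -1.05, 4173 genes were higher and 4250 lower, and 0 member calls changed.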

Other observations

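IQANK1, chosen after its values were seen, lies 359 bases beyond the start of FAM83H and fell from 51.7 ± 1.65 to 24.1 ± 2.32 CPM (SD, n = 3), with a log2 change of -1.10 (SE 0.088; adjusted p = 5.1e-05 by edgeR), while FAM83H rose in the same libraries from 203 ± 5.52 to 282 ± 9.28 CPM. Close to FAM83E, SULT2B1, a sulfotransferase gene of keratinocyte lipid metabolism 533 bases away, also chosen after its values were seen, went from 40.4 ± 1.36 to 62.2 ± 6.84 CPM (log2 change 0.62, SE 0.092; adjusted p = 0.0011 by edgeR).

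The ratio of counts to FPKM, scaled by the library total, gives the transcript length that the deposited FPKM values imply. For FAM83F it was 19.1 kb in PBS and in HMU libraries, the longest of the family, so that FAM83F stood close to FAM83D in CPM (44.9 against 57.4 in PBS) and far below it in TPM (6.78 against 57.1). For FAM83A it was 4.55, 4.20 and 4.19 kb in PBS replicates 1 to 3 and 4.11, 4.17 and 4.05 kb in HMU replicates 1 to 3, and for FAM83A-AS1 1.40 to 1.44 kb after HMU.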
